A study of Gallus gallus with 12 samples.

Results

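The comparison described here set primary chicken embryonic fibroblasts (CEFs) transfected with a *Myoz3* overexpression vector, named Over, against CEFs transfected with the control vector, named Control. It took 6 of the 12 RNA-seq libraries of the series, 3 Over and 3 Control, and every gene that passed a filter on low counts, which was 14128 of the 26102 genes in the table. The other 6 libraries were siRNA transfections of the same cell type, 3 with *Myoz3* siRNA, named Inter, and 3 with a non-specific siRNA, named NC, and they enter only where the vector libraries are set against them. All cells were grown from specific-pathogen-free broiler embryos at day 9, so both vector groups shared the embryonic stage, the culture and transfection with a vector. The overexpression vector held the *Myoz3* coding sequence in a lentiviral plasmid with a green fluorescent reporter, and its expression was driven by the CMV promoter. Each transfected culture gave 1 library, and the study calls the 3 libraries of a group biological replicates, but the labels do not say whether they came from separate embryos. The p-values therefore measure only the spread between these cultures.

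*Myoz3* encodes a myozenin, also called a calsarcin, a small scaffold protein of the muscle Z-disc. Myozenins bind alpha-actinin, filamin and telethonin, and they tether calcineurin, the calcium-activated phosphatase that turns on NFAT target genes and is known for its part in slow fibre gene expression in skeletal muscle. In mammals *Myoz3* is found mostly in fast fibres. Fibroblasts have no Z-discs, and CEF cultures are mixed connective tissue cells taken from the trunk and limbs of the embryo.

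The count table names genes by Ensembl ID only. The gene reference used here holds 0 Ensembl IDs, so no ID of the count table was paired with a symbol. The level of *Myoz3* itself, of fibroblast or muscle markers and of any gene set known by symbol was not analysed here. The overexpressed gene could not be picked out by ID to check the labels, and no role can be given to the IDs named below. What the counts show without its ID, the largest rise of any tested gene, is given below. The study measured *Myoz3* by qRT-PCR in every library and described the Over group as high. In its qRT-PCR screen of the vector in CEFs it reported a larger rise of *Myoz3* than any tested gene showed in these counts. That screen was read earlier after transfection than the time its methods give for RNA extraction. Those measurements are not part of the count table and enter here only in that comparison. What could be asked was how many genes differed, at what level and by how much, how evenly the libraries of each side shared the difference, and how the same genes stood in the siRNA libraries.

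The Over libraries held 18300623, 19773117 and 18509430 counts, and the Control libraries held 22780541, 23576681 and 21204899. Every Control library was thus deeper than every Over library, and the part of depth in the results was not tested. Over 1 stood apart from the other Over libraries. Its mean distance, as the root mean square difference over the tested genes in log2 CPM, counts scaled to a fixed library size,, was 0.353 to the other Over libraries and 0.317 to the Control libraries. Each of the other 5 libraries was nearer to its own group, with Over 2 at a mean distance of 0.320 to Over and 0.388 to Control, and Control 1 at 0.293 to Control and 0.347 to Over. The counts of Over 1 differed by a chi-square of 12.7 and 8.71 per degree of freedom from Over 2 and Over 3, and by 4.91, 6.35 and 10.3 from Control 1, 2 and 3, so that Control 3 was farther from it than Over 3 by this measure. On the first axis of a multidimensional scaling, which carried 29.4% of the variance, Over 1, 2 and 3 stood at -0.04, 0.60 and 0.48, and Control 1, 2 and 3 at -0.32, -0.50 and -0.21. The second axis carried 24.8%, with Over 1, 2 and 3 at 0.699, 0.0567 and -0.287, and Control 1, 2 and 3 at -0.495, 0.0824 and -0.056. Over 1 thus lay between the groups on the first axis and apart from both on the second. Results are therefore given with and without Over 1.

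How many genes differed between Over and Control depended on the test. The quasi-likelihood test of edgeR, which allows for the uncertainty of each gene's own spread, called 4 genes at an adjusted p under 0.05, 2 higher and 2 lower in Over, which was 0.0142% of the tested genes in each direction. The likelihood ratio test of edgeR, which the study's methods name, called 114 genes higher and 300 lower in Over, which was 0.807% and 2.12% of the tested genes. These 114 and 300 genes are called the risen and the fallen genes below, and they include the 4. When Over 1 was left out, 519 genes were higher and 1366 lower of 14443 tested by the quasi-likelihood test, or 3.59% and 9.46%, of which 518 and 1362 were also tested with all 6 libraries. Over 1 was singled out by its place in these same counts. The Over libraries kept, Over 2 and Over 3, were the closest Over pair, at a distance of 0.280. The spread in that fit is therefore small, and its p-values here and below may be too low. Leaving out any other single library left 0 genes in the quasi-likelihood test, with 1312 to 3037 genes at an unadjusted p under 0.05, and 40 to 332 genes in the likelihood ratio test. More genes fell than rose under the likelihood ratio test in all of these fits. In RNA from whole cultures, fewer cells of a type and less RNA per cell cannot be told apart.

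**Figure D1:**
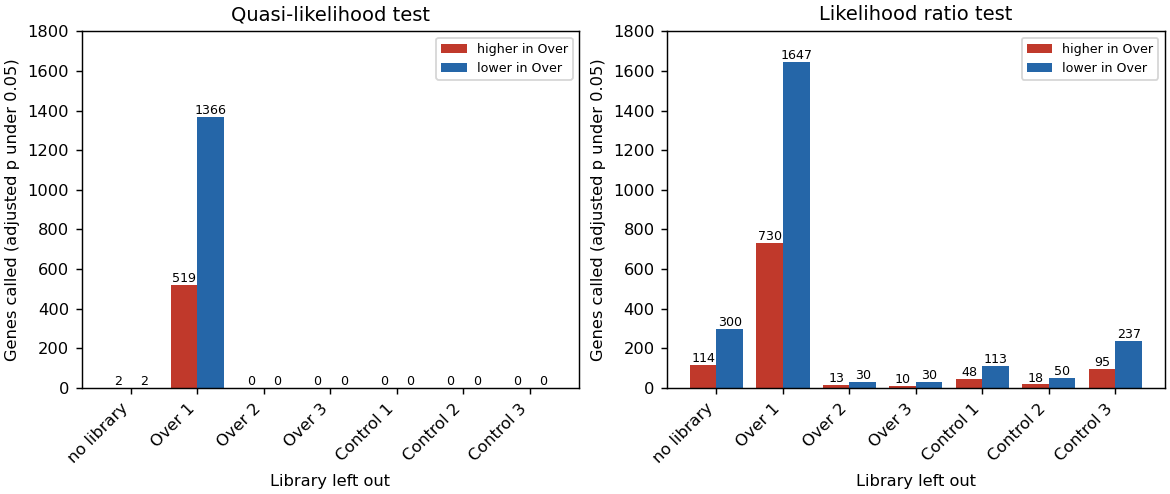
Bars give the number of genes called higher and lower in Over with all 6 libraries and with each library left out, by the quasi-likelihood test and by the likelihood ratio test. By the quasi-likelihood test the calls number 519 higher and 1366 lower without Over 1 and 0 without any other library, and by the likelihood ratio test 114 higher and 300 lower with all 6 libraries.

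**Figure D2:**
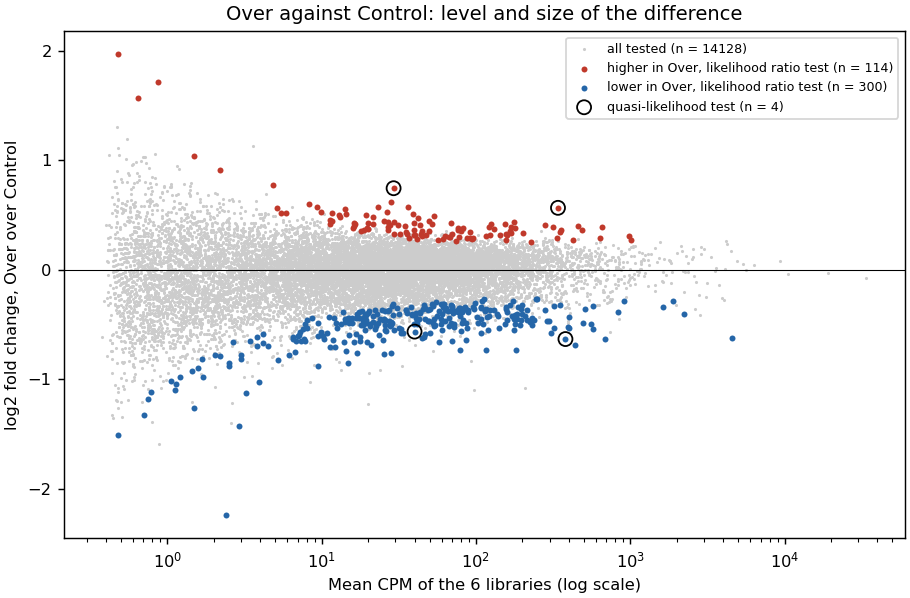
Each point is 1 of the 14128 tested genes, with its mean CPM over the 6 libraries on a log axis and its log2 fold change, Over over Control, on the other axis. The 114 risen and 300 fallen genes of the likelihood ratio test are coloured, and the 4 genes that also passed the quasi-likelihood test are ringed. The called genes sit farther from zero at low CPM, no gene reaches a log2 fold change of 2, and 1 lies under -2.

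The 4 genes that passed the quasi-likelihood test were moderately to well expressed genes with small changes. ENSGALG00000015180 had 32.8, 39.4 and 37.7 CPM in Over 1, 2 and 3, against 21.8, 22.1 and 21.7 CPM in Control 1, 2 and 3. Its lowest Over library was well above its highest Control library, a 1.67-fold rise at a log2 fold change of 0.74 ± 0.09 (quasi-likelihood adjusted p = 0.0246). ENSGALG00000011099, the other risen gene of the 4, had 378, 423 and 417 CPM in Over, against 293, 263 and 267 CPM in Control. The groups did not overlap, and the gene rose by 0.56 ± 0.08 on the log2 scale (quasi-likelihood adjusted p = 0.0347). ENSGALG00000010915 fell, with 312, 295 and 287 CPM in Over, against 432, 458 and 496 CPM in Control. Here too every Over library was below every Control library, and the log2 difference was -0.63 ± 0.08 (quasi-likelihood adjusted p = 0.0246). ENSGALG00000012117 fell as well, with 33.0, 31.4 and 32.3 CPM in Over, against 46.5, 49.0 and 47.6 CPM in Control. Its spread within either group was small beside the gap between them, with a log2 difference of -0.56 ± 0.07 (quasi-likelihood adjusted p = 0.0296).

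**Figure D3:**
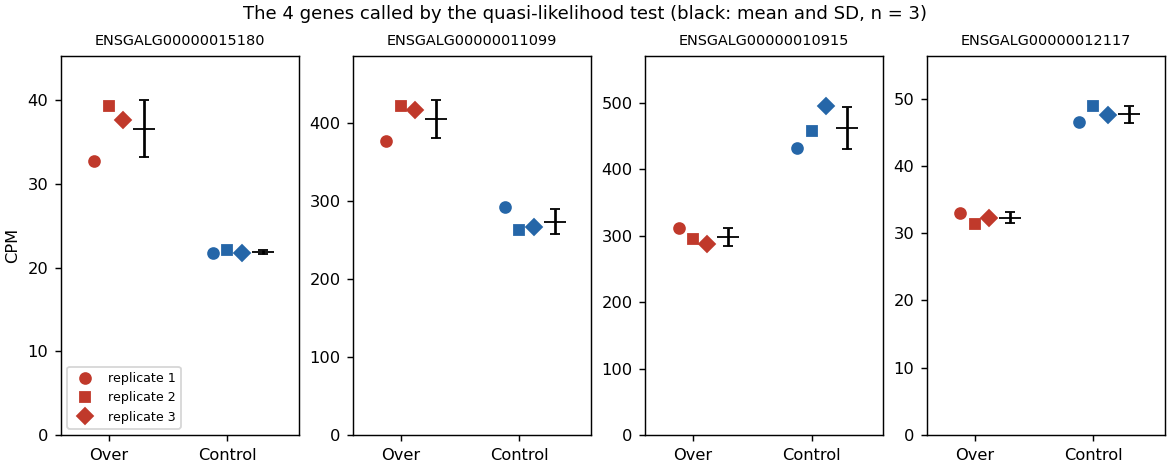
CPM of the 4 genes called by the quasi-likelihood test, with 1 point per library, Over left of Control, a line at each group's mean and a bar for 1 SD (n = 3). Every Over point lies outside the range of the Control points, and in each gene Over 1 is the Over library nearest to Control.

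The ± values, here and below, are standard errors worked back from the log2 fold change and the statistic of the quasi-likelihood test. In all 4 genes Over 1 was the Over library that differed least from the Control mean. It was still on the same side as Over 2 and Over 3, with a median of 80.0% of their shift. The 4 genes did not have the largest changes of the table. By the size of the log2 fold change they ranked 212, 380, 564 and 566 of 14128. Their median SD of log2 CPM was 0.0751 in Over and 0.0613 in Control, against 0.125 and 0.121 over all tested genes. The test favours genes of small spread, and the tested genes include many of low level. Their standard errors of 0.07 to 0.09 were near the median of all genes at their level. That median was 0.09 between 10 and 100 CPM and 0.08 at 100 CPM and above. All 4 remained called by the likelihood ratio test whichever single library was left out, and all 4 lost the quasi-likelihood call without Over 2, Over 3 or any Control library.

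The risen and fallen genes came mostly from the better expressed part of the table. The median of their mean CPM was 42.7 for the risen and 41.2 for the fallen genes, against 20.2 for all tested genes. Of the 1159 tested genes under 1 CPM, 3 rose and 4 fell, or 0.259% and 0.345%. Of the 4009 genes between 1 and 10 CPM, 9 rose and 47 fell, or 0.224% and 1.17%. Of the 6941 genes between 10 and 100 CPM, 72 rose and 174 fell, or 1.04% and 2.51%. Of the 2019 genes at 100 CPM and above, 30 rose and 75 fell, or 1.49% and 3.71%. The precision differed between the bins as well, with a median standard error of the log2 fold change of 0.36, 0.20, 0.09 and 0.08 from the lowest bin to the highest.

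The size of the change went the other way. The median log2 fold change of the fallen genes was -1.25, -0.70, -0.45 and -0.43 from the lowest bin to the highest, and that of the risen genes was 1.72, 0.57, 0.38 and 0.35. The smallest change that was called narrowed with level, from 1.56 for a rise and -1.11 for a fall under 1 CPM, to 0.26 and -0.26 at 100 CPM and above. The same gradient was present over all tested genes, called or not. Their median absolute log2 fold change was 0.29, 0.19, 0.12 and 0.11 from the lowest bin to the highest.

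Most changes were small. The risen genes had a median log2 fold change of 0.39, with quartiles of 0.32 and 0.45, and the fallen genes one of -0.47, with quartiles of -0.59 and -0.39. Only 9 of the 114 risen genes rose by 1.5-fold or more, against 76 of the 300 fallen genes that fell by as much. Called or not, 119 tested genes rose and 379 fell by that much, so falls of this size outnumbered rises in the whole table as well. A log2 fold change over 1 was reached by 4 risen genes, and one under -1 by 12 fallen genes. Over all tested genes the median was 0.00, with quartiles of -0.17 and 0.12, and 15 genes were over 1 and 46 under -1 whether called or not.

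No tested gene rose by 4-fold. A rise as large as the one the study reported for *Myoz3* in its vector screen was thus seen in no tested gene. The screen was a qRT-PCR reading at an earlier time after transfection, so the rises are not on the same footing. Whether *Myoz3* was among the tested genes was not tested, so the overexpression was not shown by these counts. The largest rise was in a gene of low level, with 0.722, 0.840 and 0.753 CPM in Over, against 0.176, 0.257 and 0.142 CPM in Control. Its log2 fold change of 1.97, or 3.91-fold, was called by the likelihood ratio test (adjusted p = 0.00229) and not by the quasi-likelihood test of edgeR (adjusted p = 0.112). The largest fall was 4.71-fold at a log2 fold change of -2.24, in a gene with 0.555, 0.395 and 1.56 CPM in Over, against 6.96, 1.71 and 3.13 CPM in Control. Its groups did not overlap but each spread widely, and it too passed only the likelihood ratio test (adjusted p = 0.0064, against 0.122 in the quasi-likelihood test of edgeR). Among called genes at 10 CPM or more, the largest rise was that of ENSGALG00000015180, and the largest fall was -0.85, in a gene with 14.0, 8.35 and 9.36 CPM in Over, against 17.2, 23.1 and 16.7 CPM in Control.

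The fallen gene with the highest level stood out by its place in the whole series. It had 4592, 2697 and 3495 CPM in Over 1, 2 and 3, against 5276, 5664 and 5675 CPM in Control. Over 1 was the nearest to Control, and Over differed by -0.62 ± 0.15 on the log2 scale (adjusted p = 0.00804 in the likelihood ratio test and 0.116 in the quasi-likelihood test of edgeR). The risen gene with the highest level had 1029, 1148 and 1132 CPM in Over, against 891, 912 and 932 CPM in Control, which was 0.28 ± 0.07 higher on the log2 scale (adjusted p = 0.0431 and 0.129 in the same tests). These genes were singled out after their values were seen, as were the extremes above.

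No tested gene was counted on one side only. Of the tested genes, 0 were counted in all Over libraries and in no Control library, and 0 the reverse. Of the 6503 genes with a count that the filter left out, none had more than 20 counts in an Over library or more than 26 in a Control library. Among those, 28 were counted in all 3 Over libraries and in no Control library, with at most 5 counts in a library, and 63 were counted in all 3 Control libraries and in no Over library, with at most 6.

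The study's text gives some genes by Ensembl ID, as changed both here and in the knockdown, and 4 such IDs are described next. They were chosen in part on these libraries, so their direction here is not independent evidence. None of the 4 passed the quasi-likelihood test of edgeR, with adjusted p-values of 0.103 to 0.151, all passed the likelihood ratio test, and in none did the groups overlap. The likelihood ratio call was lost in all 4 without Over 3 (adjusted p of 0.107 to 0.331) or without Control 2 (0.0621 to 0.149), and in all but ENSGALG00000011668 without Over 2 (0.0518 to 0.172). ENSGALG00000035656 had 121, 65.8 and 76.0 CPM in Over, against 136, 160 and 140 CPM in Control. Over 1 lay much nearer to Control than to Over 2 and Over 3, and the log2 fold change was -0.74 with all libraries and -1.04 without Over 1 (quasi-likelihood adjusted p = 0.000131). ENSGALG00000028466 had 75.5, 68.4 and 64.1 CPM in Over, against 80.7, 93.7 and 94.9 CPM in Control, at a log2 fold change of -0.37, and its likelihood ratio call was lost also without Control 3 (adjusted p = 0.0682). ENSGALG00000011668 had 235, 288 and 224 CPM in Over, against 297, 311 and 425 CPM in Control, at a log2 fold change of -0.47. Control 3 was the highest of its libraries, and without it the log2 fold change was -0.29 and the likelihood ratio call was lost (adjusted p = 0.153). In this gene Over 1 did not stand nearest to Control, and the quasi-likelihood call failed also without it (adjusted p = 0.0603). ENSGALG00000037711 was higher in Over, with 89.9, 95.2 and 96.2 CPM in Over, against 73.5, 68.1 and 74.4 CPM in Control, at a log2 fold change of 0.38.

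The groups did not overlap in all 114 risen and in 294 of the 300 fallen genes, where over all tested genes every Over library was above every Control library in 11.2% and below in 10.3%. This separation follows in part from the call itself and is given as a description. The spread was unequal between the sides. In the fallen genes the median SD of log2 CPM was 0.206 over the 3 Over libraries and 0.108 over the 3 Control libraries, whereas Over 2 and Over 3 alone had a median SD of 0.0921. In the risen genes the values were 0.105 in Over, 0.0805 in Control and 0.0456 in Over 2 and Over 3. Over all tested genes they were 0.125 in Over, 0.121 in Control and 0.0724 in Over 2 and Over 3. An SD over 2 libraries has a lower median than one over 3, so the last value of each set is not on the same footing.

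Over 1 carried less of the change than its replicates. In the fallen genes the median log2 difference from the Control mean was -0.25 in Over 1, -0.63 in Over 2 and -0.53 in Over 3, against -0.04, 0.07 and -0.03 in Control 1, 2 and 3. In the risen genes it was 0.29, 0.47 and 0.41 in Over 1, 2 and 3, against 0.02, -0.03 and -0.01 in Control 1, 2 and 3. Over 1 had the smallest shift of the 3 Over libraries in 258 of 300 fallen genes (86.0%) and in 96 of 114 risen genes (84.2%). Its median shift was 46.4% of the mean shift of Over 2 and Over 3 in the fallen genes and 63.2% in the risen genes. Over 1 was close to Control in the whole table as well. Over all tested genes its difference from the Control mean had quartiles of -0.1 and 0.1. Those of Over 2 were -0.23 and 0.17, and those of Over 3 were -0.2 and 0.15. Summed over the list, the fallen genes took 3.36%, 2.71% and 2.89% of all CPM in Over 1, 2 and 3, against 3.89%, 4.19% and 4.07% in Control 1, 2 and 3. The risen genes took 1.28%, 1.46% and 1.42% in Over, against 1.11%, 1.06% and 1.06% in Control.

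**Figure D4:**
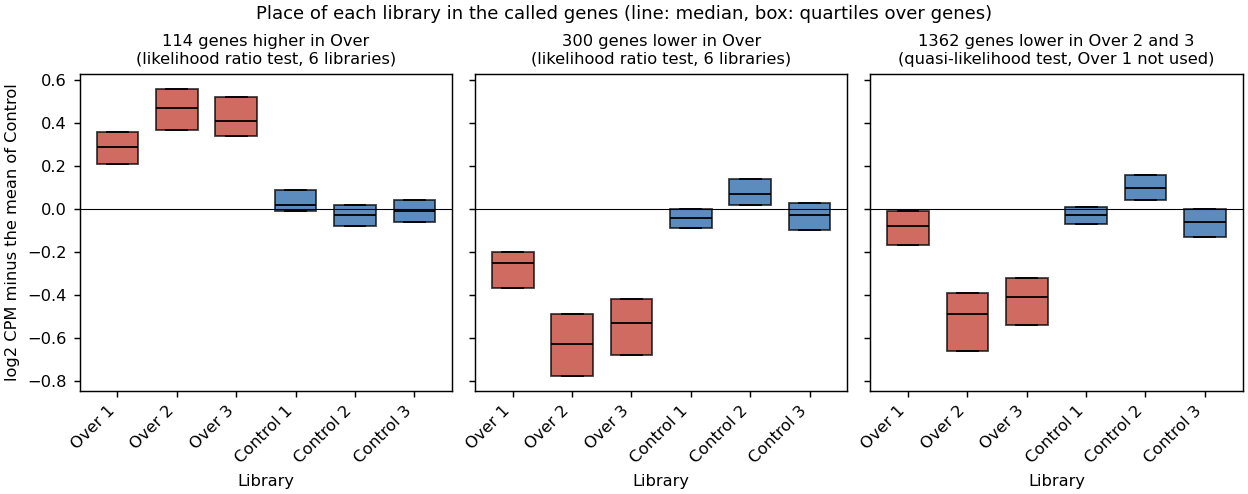
For each of the 6 libraries, Over left of Control, the median (line) and quartiles (box) over genes of log2 CPM minus the Control mean, in the 114 risen genes, the 300 fallen genes and the 1362 genes called lower without Over 1. In the fallen genes Over 1 sits at -0.25 with Over 2 at -0.63 and Over 3 at -0.53, and in the genes called without it Over 1 sits at -0.08 with the others at -0.49 and -0.41.

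The genes called without Over 1 gave a reading of that library on lists it had no part in, although the Control libraries were shared. Sharing them favours agreement of Over 1 with the list, and Over 2 and Over 3 were selected there for a large shift, so the values are a description. Of the 518 genes called higher in Over 2 and Over 3, Over 1 was above the Control mean in 482 (93.1%) and above every Control library in 368 (71.0%), against 51.7% and 22.9% of all tested genes, and its median shift was 42.7% of theirs. Of the 1362 genes called lower, Over 1 was below the Control mean in 1062 (78.0%) and below every Control library in 622 (45.7%), against 48.3% and 23.6% of all tested genes, with a median shift of 16.6% of theirs. Of the risen genes 112 of 114 (98.2%) were among those 518, of which they made up 21.6%. Of the fallen genes 289 of 300 (96.3%) were among those 1362, of which they made up 21.2%. Without Over 1, 3.59% of all genes tested were called higher and 9.46% lower. Both sets of lists rest on Over 2, Over 3 and the Control libraries, so this overlap follows in large part from the calls.

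The same reading was made for each library in turn with the likelihood ratio test. The share of tested genes called was 5.05% higher and 11.4% lower without Over 1, 0.0901% and 0.208% without Over 2, and 0.0694% and 0.208% without Over 3. It was 0.336% higher and 0.791% lower without Control 1, 0.126% and 0.350% without Control 2, and 0.665% and 1.66% without Control 3. Of the genes called lower without Over 1, 1634 of them in the table with all 6 libraries, the median was -0.07 in Over 1 and -0.45 in the libraries used. Without Over 2 or Over 3 the calls were few, at 30 lower in either case, but the library left out then carried a change of about the same size. Over 2 had a median of -0.59 where the libraries used had -0.57, and Over 3 one of -0.53 where they had -0.63. These short lists had to pass with Over 1 in the fit, and the 1634 genes did not. The lists were thus selected differently, and the medians of the libraries left out are not on the same footing. On the Control side, the 111 genes called lower without Control 1 had a median of -0.40 when Over was set against Control 1 alone and -0.57 against the Control libraries used, and for Control 2 and Control 3 these values were -0.53 and -0.61 in 50 genes, and -0.39 and -0.56 in 233 genes. The genes called higher had a median of 0.14 in Over 1 and 0.32 in the libraries used. In the 5 other cases the value of the library left out was 0.29 to 0.59.

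Few calls stood on every library. Without Over 1, 114 of 114 risen and 299 of 300 fallen genes remained called by the likelihood ratio test. Without Over 2 it was 12 and 26, without Over 3 it was 10 and 24, and without Control 2 it was 17 and 41. Without Control 1 or Control 3 more remained, 38 and 104 or 60 and 174. The genes that remained called whichever library was left out numbered 8 of 114 risen and 13 of 300 fallen genes, the 4 genes above among them.

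The fallen genes were next set against the siRNA libraries. Control compared with NC is a comparison of transfection types and not of *Myoz3*, and it shares the Control libraries with Over against Control, as Over against NC shares the Over libraries. The NC libraries were also shallower, at 13291600, 15969800 and 15954842 counts, and the labels do not say whether vector and siRNA libraries were prepared together, so transfection type and preparation cannot be told apart. By the quasi-likelihood test, 35.4% of 14371 tested genes were higher and 31.9% lower in Control than in NC, and 34.0% of 14211 were higher and 27.7% lower in Over than in NC. Of the 300 fallen genes 295 were tested in all 3 comparisons, as were 13798 genes in all. Of these 295, 268 (90.8%) were higher in Control than in NC, against 36.2% of the 13798, and 8 (2.71%) were lower, against 31.0%. The fallen genes made up 5.37% of the 4993 genes that were higher in Control than in NC. In Over, 227 of the 295 (76.9%) were still above NC, against 34.9% of all.

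The fallen genes thus stayed for the most part above their siRNA level. Their median log2 difference from NC was 1.33 in Over and 1.81 in Control, where over all 13798 genes it was 0.03 and 0.01. The median CPM of the fallen genes was 44.7, 32.4 and 37.3 in Over 1, 2 and 3 and 51.9, 53.0 and 50.8 in Control 1, 2 and 3, against 14.3, 14.7 and 12.8 in NC 1, 2 and 3. In 253 of 295 (85.8%) the Over mean lay between the Control and NC means, against 62.9% of all genes. The fallen genes were called for Over below Control, so this share follows in part from the call. In 224 (75.9%) all 6 vector libraries were above all 6 siRNA libraries, against 32.5%. The best expressed fallen gene, at 4875, 2851 and 3696 CPM in Over and 5600, 6032 and 6017 CPM in Control on the scale of all 12 libraries, had 78.6, 109 and 69.3 CPM in NC and 70.6, 82.7 and 99.9 CPM in Inter.

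**Figure D5:**
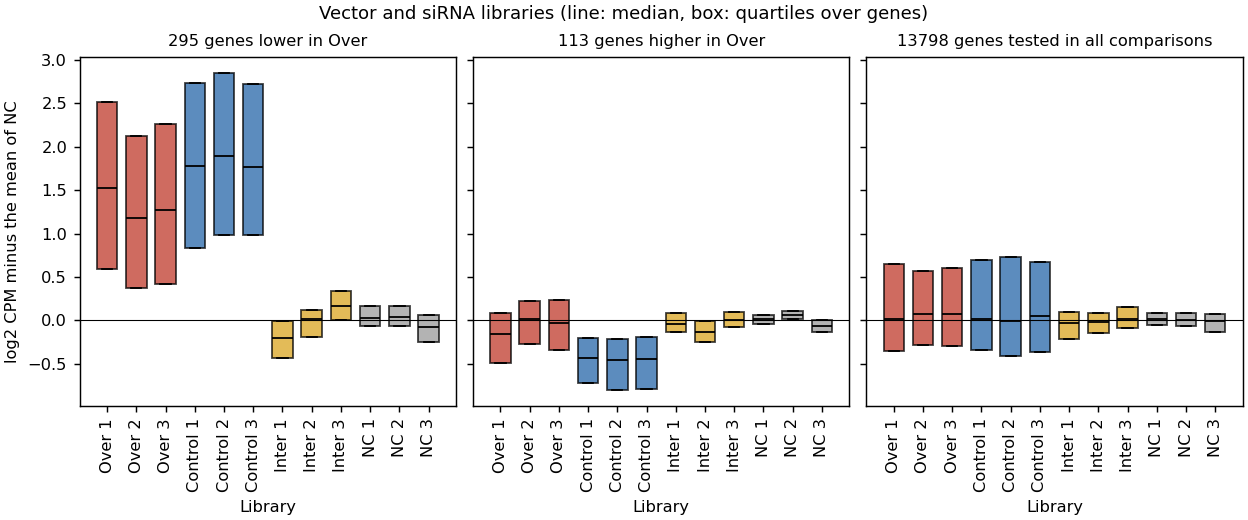
For each of the 12 libraries, in the order Over, Control, Inter and NC, the median (line) and quartiles (box) over genes of log2 CPM minus the NC mean, in 295 fallen genes, 113 risen genes and all 13798 genes tested in the 3 comparisons. The fallen genes sit at 1.18 to 1.53 in Over, 1.77 to 1.89 in Control and -0.20 to 0.17 in Inter.

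The share was also read by level. Between 1 and 10 CPM, 37 of 45 fallen genes (82.2%) were higher in Control than in NC, against 32.7% of all genes there. Between 10 and 100 CPM it was 162 of 174 (93.1%, against 38.9%), and at 100 CPM and above 69 of 75 (92.0%, against 45.9%). Only 1 fallen gene under 1 CPM was tested in all comparisons, and it was not higher in Control.

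In Control the risen genes showed the opposite tilt by a smaller amount. Of 113 tested in all comparisons, 87 (77.0%) were lower in Control than in NC, against 31.0% of all genes. Only 4 (3.54%) were higher, against 36.2%. In Over 34 (30.1%) were lower than in NC, near the 26.5% of all genes. In the same comparison 20 (17.7%) were higher, against 34.9% of all genes. Their median log2 difference from NC was -0.09 in Over and -0.45 in Control. Their median CPM was 46.8, 55.9 and 51.2 in Over and 39.5, 39.8 and 40.0 in Control, against 58.5, 61.6 and 57.4 in NC. The Over mean lay between the Control and NC means in 64 of the 113 (56.6%), against 62.9% of all genes. All 6 vector libraries were below all 6 siRNA libraries in 32 (28.3%), against 23.5%.

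The scaling between vector and siRNA libraries moved the background of these counts. With scaling by library totals only, the median log2 difference of all genes from NC was -0.14 in Control, so the genes called split into 4341 higher and 5991 lower in Control in place of 5085 and 4590, and into 4090 higher and 5220 lower in Over in place of 4834 and 3933. The fallen genes were then higher in Control than in NC in 258 of 295 (87.5%, against 30.8% of all) and the risen genes lower in 98 of 113 (86.7%, against 41.0%).

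To read the siRNA side without a shared library, genes were called without 1 Control library and that library alone was set against NC. The 110 genes called lower without Control 1 had a median log2 difference of 1.49 between Control 1 and NC, and Control 1 was above every NC library in 88.2% of them, against 44.6% of all genes. The 49 genes called lower without Control 2 had a median of 1.19, with 71.4% above every NC library against 43.8% of all, and the 227 called lower without Control 3 had one of 1.85, with 93.4% against 45.6%. The genes called higher numbered 47, 17 and 93, with medians of -0.47, -0.43 and -0.34, and the Control library left out was below every NC library in 87.2%, 88.2% and 76.3% of them, against 41.1%, 43.2% and 39.7% of all.

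Read from the other side, the difference between Over and Control was graded over all genes, called or not, by how far Control stood above NC. In the 683 genes with a log2 difference between Control and NC under -1, the median log2 difference of Over from Control was 0.15. It was 0.08 in the 6184 genes from -1 to 0 and -0.03 in the 4240 genes from 0 to 1. In the 1319 genes from 1 to 2 it was -0.21, in the 641 from 2 to 3 it was -0.27, and in the 731 genes of 3 and above it was -0.28. The fallen genes made up 0.439%, 0.162%, 1.58%, 6.29%, 11.1% and 8.34% of these strata in the same order. Since Control enters both sides, the genes were also ordered by 1 Control library and Over was compared with the others only. The median in the top stratum was then -0.27, -0.20 and -0.34 with Control 1, 2 and 3 used for the ordering. At the other end the grading was weaker, with a median of 0.11, 0.10 and 0.04 in the genes under -1, against 0.09, 0.06 and 0.08 in those from -1 to 0, so that with Control 3 the order of these strata turned round. Over 1 did not take part in this to the same extent. Its median in the top stratum was -0.04, with Over 2 at -0.40 and Over 3 at -0.34, and it was -0.04, 0.04 and -0.11 in the orderings by single Control libraries.

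The 4 genes of the quasi-likelihood test each stood against NC on the side most of their list did, both fallen genes being higher and both risen genes lower in Control than in NC. Over 12 libraries, ENSGALG00000012117 had 35.1, 33.2 and 34.2 CPM in Over and 49.4, 52.2 and 50.4 CPM in Control, against 4.08, 5.46 and 3.53 CPM in NC. It was far higher in both vector groups, at a log2 difference from NC of 2.95 in Over and 3.52 in Control. ENSGALG00000010915 had 332, 312 and 303 CPM in Over and 459, 488 and 526 CPM in Control, against 240, 236 and 292 CPM in NC, so that Over stood between the others. ENSGALG00000011099 had 401, 447 and 441 CPM in Over and 311, 280 and 283 CPM in Control, against 883, 823 and 799 CPM in NC. Its rise in Over left it at a log2 difference of -0.97 from NC, where Control was at -1.53. ENSGALG00000015180 had 34.8, 41.6 and 39.9 CPM in Over and 23.1, 23.6 and 23.1 CPM in Control, against 26.3, 38.7 and 31.5 CPM in NC. It was lower in Control than in NC (log2 difference -0.48, quasi-likelihood adjusted p = 0.0053), and the difference of 0.25 between Over and NC did not pass the test (adjusted p = 0.116).

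The lists were last read between the siRNA groups. In the study's qRT-PCR the third Inter library was not sufficiently knocked down. The median log2 difference of Inter from NC was -0.03 in the fallen and -0.06 in the risen genes, against -0.02 over all genes. With Inter 1 and Inter 2 only, it was -0.11 in the fallen and -0.09 in the risen genes, against -0.02 over all genes. The median CPM of the fallen genes was 11.2, 14.0 and 15.7 in Inter 1, 2 and 3, against 14.3, 14.7 and 12.8 in NC, and the groups overlapped.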

How the data were processed

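Total RNA of CEFs was sequenced as paired-end reads (NEBNext Ultra libraries, HiSeq), 1 library per transfected culture. Per the study's methods and the submitters' processing notes, the authors indexed the genome with Bowtie2 2.2.3, aligned clean reads with TopHat2 2.0.12 and counted them per gene with HTSeq 0.6.1. Whether the counting used strand is not given in the sources used here. If it did not, reads of overlapping and antisense genes cannot be told apart. The deposited values are raw counts per Ensembl gene, not normalised, in 1 table of 12 libraries. It had 0 lines that name no gene and 0 columns of other samples.

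Genes were kept with the edgeR filter (at least 10 counts, 15 in total), scaled by TMM, and tested on the 6 libraries of a comparison with the quasi-likelihood test of edgeR 4.0.16 in R 4.3.3, with Benjamini-Hochberg adjustment at 0.05. The biological coefficient of variation of Over and Control was 0.09. The likelihood ratio test, DESeq2 1.42.0, limma 3.58.1, other scalings and filters, a fit of all 12 libraries, a replicate block and leaving out each library were alternatives. Only the quasi-likelihood and likelihood ratio tests, with the same filter and TMM, were tried on simulated data first. Log2 CPM used a prior count of 2, and CPM over 12 libraries were scaled over all of them. Same-numbered Over and Control libraries had deviation correlations of -0.12, -0.15 and 0.05 across genes, and the numbers were not taken to pair them.

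Named genes were those called by the quasi-likelihood test and 4 that the study's text gives by ID. The rule listed ENSGALG00000014978 as well, which that text does not give, and it is not described. Genes and lists given by symbol were not analysed here, since the gene reference used held 0 Ensembl IDs. No sequence is printed for the same reason. The comparison, the lists and this rule were chosen with earlier results of these data known.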

Additional observations from a re-analysis of the deposited data

How the results depend on the processing

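The 4 genes called between Over and Control by the quasi-likelihood test became 414 with the likelihood ratio test, 389 with DESeq2, 316 with no filter on low counts, 10 with scaling by library totals only and 1 with all 12 libraries in one fit. They remained 4 or 5 with limma-voom, the bias-adjusted quasi-likelihood method, DESeq2-style size factors, upper quartile factors or a filter at 1 CPM. With the replicate block the count was 9, and 361 in the likelihood ratio test with the block, but the shared numbers were not found to pair the libraries. Leaving out 1 library gave 0 to 1885 genes in the quasi-likelihood test, the highest without Over 1 and 0 without each of the others, and in the likelihood ratio test 2377 without Over 1, 43 without Over 2, 40 without Over 3, and 161, 68 and 332 without Control 1, 2 and 3. The likelihood ratio test gave 455 genes with library totals only, 416 with DESeq2-style size factors, 462 with upper quartile factors, 327 with no filter and 404 with a filter at 1 CPM, settings that were chosen after seeing the data. The 4 genes were called in every one of these settings except in the quasi-likelihood test without Over 2, Over 3 or a Control library, where 0 of 4 were, and in the fit of 12 libraries, where 1 of 4 was. Over all alternatives the log2 fold changes of the 9 genes listed by the naming rule reversed in 0 cases.

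The share of fallen genes higher in Control than in NC, 90.8%, was 71.4% to 93.3% when the fallen genes were called under other settings, also chosen after seeing the data. It was lowest in the short lists, at 76.7% without Over 2, 86.7% without Over 3 and 71.4% without Control 2. The count of genes called was 8861 to 10332 between Control and NC, where it was 9675, and 7992 to 9310 between Over and NC, where it was 8767. With the replicate block it was 9673 and 8703. The planned comparisons over gene lists were not run because the gene reference used here did not pair the IDs with symbols. Log2 fold changes had their largest standard errors under 1 CPM, with a median of 0.36, and the part of depth in the calls was not tested.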

Other observations

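Genes lower in Over also varied among the libraries of other groups. Of the 300 fallen genes, 204 (68.0%) had their highest Control value in Control 2, against 34.6% of all tested genes. Of the 1362 genes called lower without Over 1, 1049 (77.0%) did so, although Control 2 took part in the calls of either list. In the 1353 of these tested in all 3 comparisons, the median log2 difference from the NC mean was -0.33, -0.14 and 0.18 in Inter 1, 2 and 3, against 0.09, 0.05 and -0.14 in NC 1, 2 and 3. None of these 6 libraries took part in the calls. Inter 1 was thus the lowest and Inter 3, the library not sufficiently knocked down by qRT-PCR, the highest. In the 1353 genes the median difference of the mean of Inter 1 and Inter 2 from NC was -0.25. Over all 13798 genes the medians were -0.03, -0.02 and 0.02 in Inter 1, 2 and 3 and 0.02, 0.00 and -0.01 in NC 1, 2 and 3. Whether the order of the Inter libraries had to do with the knockdown was not tested. Across genes, the deviation of Over 1 from the Over mean had a correlation of 0.29 with that of Control 2 from the Control mean, the highest of the 9 pairs of an Over and a Control library. Genes are not independent replicates, and this is given as a description.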
